A study of Arabidopsis thaliana with 9 samples.

Results

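The comparison set hyperphyllin-treated wild-type seedlings against amp1-13 mutant seedlings of Arabidopsis thaliana, as the difference between the compound and the mutation rather than the effect of either on untreated plants. It took 6 of the 9 arrays of the series, the 3 titled as hyperphyllin-treated wild type minus the 3 titled as the amp1-13 control, chosen by their titles alone. The hyperphyllin group was Col-0 wild type grown with 30 µM hyperphyllin, the amp1-13 group was the mutant in the Col-0 ecotype grown with solvent only, and the remaining 3 arrays were Col-0 wild type with solvent only. All groups were whole seedlings grown for 10 days in liquid half-strength Murashige and Skoog medium with 1% sucrose in multiwell plates, sown several to a well, at 26 °C under long days (16 h light, 8 h dark). The solvent was 1% DMSO. RNA of 3 biological replicates per group was hybridised to Affymetrix ATH1 arrays. The lesion of the amp1-13 allele is not given in the labels, a mutant grown with hyperphyllin was not analysed here, and neither was the AMP1 transcript.

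AMP1 (ALTERED MERISTEM PROGRAM 1) encodes a putative glutamate carboxypeptidase of the endoplasmic reticulum membrane that restrains the shoot meristem. Loss of AMP1 is known for an enlarged shoot apex, faster leaf formation and raised cytokinin content, and hyperphyllin is a small molecule known for producing amp1-like seedlings. The comparison therefore asks which transcripts differ between seedlings that carry the compound and seedlings that carry the mutation.

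Values are log2 signals as deposited, on which a difference of 1 is a 2-fold difference, and errors of differences are standard errors of the limma fit with n = 3 arrays per group unless stated otherwise. Array medians lay between 6.44 and 6.52. Replicate 2 of wild type with DMSO stood apart, with a Pearson correlation over all probe sets of 0.983 with replicate 1 and 0.987 with replicate 3, against 0.995 between those 2 arrays. It takes no part in the difference itself and enters through the pooled spread. No detection call was used, and the lowest quartile of probe sets by mean signal reached up to 4.39. A group mean at or below that level is called dim here, and a difference that involves a dim mean is given in log2 units of signal with no fold, because background limits how low a signal can go.

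Hyperphyllin-treated seedlings and amp1-13 seedlings differed in 1439 of the 22746 probe sets tested, or 6.33%, at an adjusted p under 0.05 (limma with Benjamini-Hochberg adjustment). Of these 677 were higher with hyperphyllin (2.98%) and 762 were lower (3.35%). The probe sets naming 1 gene were 717 of the 1439, and 13513 of all 22746. Genes described below as called come from those 717. In all 1439 the 3 hyperphyllin arrays did not overlap the 3 amp1-13 arrays, a pattern that 6121 of all probe sets (26.9%) also showed. Most differences were modest: the median size among the called probe sets was 1.79-fold, 266 were at least 2-fold higher (1.17% of those tested) and 259 at least 2-fold lower (1.14%), and 46 were at least 4-fold higher (0.202%) and 23 at least 4-fold lower (0.101%). The median difference over all probe sets was 0.005. By comparison, hyperphyllin minus wild-type DMSO called 6567 probe sets (28.9%) and amp1-13 minus wild-type DMSO called 5124 (22.5%), and these comparisons share the wild-type arrays. The counts depended on single arrays. Without amp1-13 replicate 2 they were 197 higher and 309 lower, without amp1-13 replicate 3 they were 304 and 416, without hyperphyllin replicate 2 they were 251 and 361, and without hyperphyllin replicate 1 they were 382 higher. Without replicate 2 of wild type with DMSO they were 1094 and 1133.

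**Figure D1:**
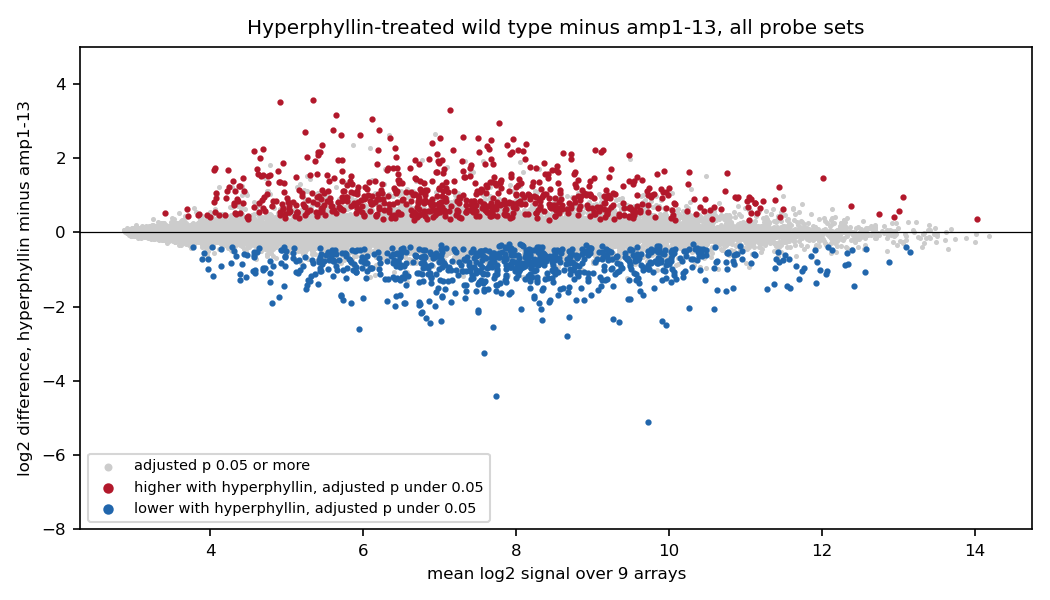
Difference between hyperphyllin-treated wild type and amp1-13 (y axis, log2) against the mean log2 signal over the 9 arrays (x axis), 1 point per probe set. The 677 probe sets higher with hyperphyllin are red and the 762 lower ones are blue. Among called probe sets that name 1 gene, the lowest point, at -5.10, is AT4G33720.

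Among the 15 genes with the largest difference upwards were PDF1.4 and THI2.2, both for small secreted defence peptides. PDF1.4, a plant defensin, had log2 signals of 8.01, 7.32 and 7.23 with hyperphyllin, against 4.47, 4.40 and 4.20 in amp1-13, and wild type with DMSO had 6.25, 4.20 and 4.78. Hyperphyllin arrays thus lay above all amp1-13 and all wild-type arrays, with a dim mean of 4.35 in amp1-13 (difference 3.17 ± 0.44, adjusted p = 0.00356). THI2.2, a thionin, a type of antimicrobial peptide, had 8.42, 8.37 and 7.97 with hyperphyllin and 5.52, 5.93 and 5.66 in amp1-13, with wild type with DMSO between them at 7.17, 6.97 and 7.06. Its groups did not overlap, and the difference was 2.55 ± 0.15 (5.86-fold, adjusted p = 5.02e-05). Against wild-type DMSO, THI2.2 was 1.19 higher with hyperphyllin (adjusted p = 0.000596) and -1.36 in amp1-13 (adjusted p = 0.000592), so the compound and the mutation moved it in opposite directions. Of 15 measured defensin and thionin genes 3 were higher and 0 lower, against 2.46% and 2.88% of all 13355 genes, and the other 12 were not called. The median of the 15 was 0.08, against 0.006 over all genes, and their differences ran from -0.62 to 3.17. The other called member, the defensin gene PDF2.1, had 4.76, 4.84 and 4.70 with hyperphyllin and 3.86, 4.14 and 3.76 in amp1-13, a difference of 0.84 ± 0.15 (adjusted p = 0.0116). Its amp1-13 mean, 3.92, was dim. Its call was lost without hyperphyllin replicate 2 or amp1-13 replicate 3 (adjusted p = 0.0569 and 0.0524).

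QQS, a gene found only in Arabidopsis thaliana that is known for affecting leaf starch content, had 6.77, 6.63 and 6.20 with hyperphyllin and 3.75, 4.13 and 3.80 in amp1-13. Wild type with DMSO had 8.11, 6.91 and 7.39. Both tested conditions were below wild type, the mutant far more so: the difference was -0.94 with hyperphyllin (adjusted p = 0.0296) and -3.58 in amp1-13 (adjusted p = 0.000212), and the difference between hyperphyllin and amp1-13 was 2.64 ± 0.27 (adjusted p = 0.00113). The amp1-13 mean, 3.89, was dim.

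The largest measured difference upwards was that of AT1G22810, a locus with no symbol in the tables used here. It had 8.51, 8.19 and 7.05 with hyperphyllin, against 5.36, 3.66 and 4.01 in amp1-13 and 3.86, 3.60 and 3.90 in wild type with DMSO, a difference of 3.57 ± 0.45 between hyperphyllin and amp1-13 (adjusted p = 0.00265). The means of amp1-13, 4.34, and wild type with DMSO, 3.79, were both dim, so its place among the largest differences rests on signals near background. The locus AT2G34930 followed the same layout, with 9.25, 8.64 and 7.62 with hyperphyllin, 6.47, 4.88 and 4.96 in amp1-13, and 4.92, 4.23 and 4.09 in wild type with DMSO (3.06 ± 0.49, adjusted p = 0.00722). In both genes the first amp1-13 array was above the other 2, and the third hyperphyllin array was below the other 2, so that the arrays of a group were spread widely while the groups stayed apart. ATPMEPCRB, a pectin methylesterase, an enzyme that modifies cell wall pectin, had 10.05, 9.75 and 9.49 with hyperphyllin and 8.11, 6.89 and 7.26 in amp1-13, with wild type with DMSO lowest at 5.96, 5.70 and 5.36 (2.34 ± 0.29, 5.07-fold, adjusted p = 0.00246). AT1G56060 and AT4G35985 were 5.81-fold and 4.62-fold higher (adjusted p = 0.0051 and 0.0047).

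The remaining 7 of the 15 largest upward differences were those of MSRB6, a methionine sulfoxide reductase that repairs oxidised methionine (2.26 ± 0.39), AT1G76640, listed as calmodulin-like CML39 (2.96 ± 0.65), AT5G52050, listed as the efflux carrier DTX50 (2.23 ± 0.48), and the loci AT4G22610 (2.22 ± 0.56), AT1G61890 (2.21 ± 0.39), AT5G19110 (2.18 ± 0.43) and AT3G51450 (2.17 ± 0.45). Their calls were past the threshold with all arrays (adjusted p between 0.00948 and 0.0475) and were each lost without amp1-13 replicate 2, with adjusted p between 0.055 and 0.182. Those other than MSRB6 were also lost without hyperphyllin replicate 2 (0.0568 to 0.166) and without amp1-13 replicate 3 (0.0529 to 0.158). AT1G76640, AT4G22610, AT5G19110 and AT3G51450 were lost without hyperphyllin replicate 1 (0.0547 to 0.148), AT5G52050 without hyperphyllin replicate 3 (0.0661), and AT4G22610 without replicate 1 or 3 of wild type with DMSO (0.0579 and 0.0806), with only the 6 arrays compared (0.073) and after a further quantile normalization (0.0544). Over the 15 genes the first amp1-13 array was the highest of its group in 13 and the third hyperphyllin array was the lowest of its group in 13. Over all 677 probe sets higher with hyperphyllin these counts were 439 and 406, against 7789 and 6171 of all 22746 probe sets. The first array was also the highest of its group in 11 of the 15 genes with hyperphyllin, and in 13 in wild type with DMSO. For these 2 groups the counts were 335 and 278 over the 677 probe sets, against 7204 and 7994 of all 22746. The part of this array order in the result was not tested.

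**Figure D2:**
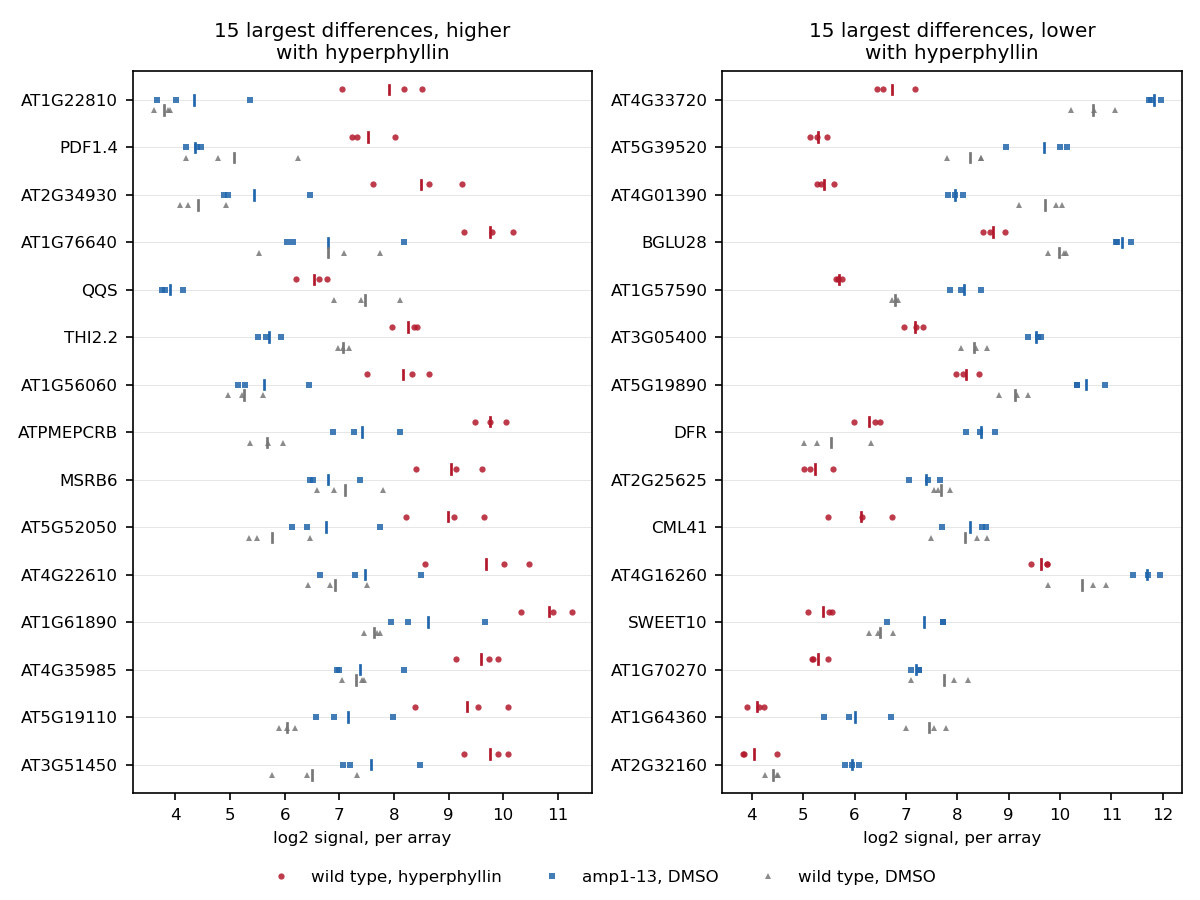
Log2 signal of the 15 genes with the largest difference in each direction, with 1 symbol per array and a bar at each group mean (red circles, wild type with hyperphyllin; blue squares, amp1-13; grey triangles, wild type with DMSO). AT4G33720 lies between 6.43 and 7.18 with hyperphyllin and between 11.73 and 11.97 in amp1-13, and no gene shows overlap between these 2 groups.

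The genes lower with hyperphyllin held the largest difference of the comparison in either direction among named genes. AT4G33720, a locus with no symbol in the tables used here, had 6.43, 6.56 and 7.18 with hyperphyllin, against 11.97, 11.73 and 11.78 in amp1-13 and 10.66, 10.22 and 11.07 in wild type with DMSO. It was 34.4-fold lower with hyperphyllin than in amp1-13 (-5.10 ± 0.24, adjusted p = 3.41e-05), and lay 3 or more log2 units below every array of the other groups. Against wild-type DMSO it fell by 3.92 with hyperphyllin (adjusted p = 5.37e-05) and was 1.18 higher in amp1-13 (adjusted p = 0.00855). AT5G39520 showed the same layout, with 5.13, 5.27 and 5.47 with hyperphyllin, 8.94, 10.01 and 10.14 in amp1-13, and 8.47, 7.80 and 8.46 in wild type with DMSO (-4.41 ± 0.30, 21.2-fold, adjusted p = 0.000149).

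BGLU28, a beta-glucosidase known for its induction under sulphur deficiency, had 8.64, 8.51 and 8.92 with hyperphyllin and 11.12, 11.09 and 11.39 in amp1-13, with wild type with DMSO between them at 10.12, 9.76 and 10.08. The 3 groups did not overlap, and the difference between hyperphyllin and amp1-13 was -2.51 ± 0.14 (5.68-fold, adjusted p = 5.02e-05). A further 3 loci had the same order, with wild type in the middle: AT1G57590 (-2.44 ± 0.14, adjusted p = 5.02e-05), AT3G05400 (-2.35 ± 0.15, adjusted p = 8.15e-05) and AT5G19890 (-2.34 ± 0.19, adjusted p = 0.000457). For these 3, the difference from wild-type DMSO was -1.10, -1.16 and -0.94 with hyperphyllin, and 1.35, 1.19 and 1.40 in amp1-13. AT4G16260 differed by -2.05 ± 0.26 (adjusted p = 0.00283).

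For another group of genes the amp1-13 arrays overlapped wild type and the hyperphyllin arrays lay below both. AT2G25625 had 5.13, 5.01 and 5.57 with hyperphyllin and 7.06, 7.67 and 7.43 in amp1-13, against 7.86, 7.62 and 7.55 in wild type with DMSO. The amp1-13 arrays overlapped wild type (-0.29, adjusted p = 0.309) and the hyperphyllin arrays did not (-2.44, adjusted p = 0.000106), and the difference between hyperphyllin and amp1-13 was -2.15 ± 0.19 (adjusted p = 0.000496). AT1G70270 had the same overlap (-1.92 ± 0.24, adjusted p = 0.0025), as was CML41, a calmodulin-like protein gene (-2.13 ± 0.37, adjusted p = 0.0101), whose call was lost without amp1-13 replicate 2 (adjusted p = 0.0601). AT4G01390 and AT1G64360 were below wild type in both groups and further below it with hyperphyllin, with differences between hyperphyllin and amp1-13 of -2.56 ± 0.20 (adjusted p = 0.000359) and -1.91 ± 0.30 (adjusted p = 0.00677). The hyperphyllin mean of AT1G64360, 4.09, was dim.

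In other genes the amp1-13 arrays were above all arrays of the other groups. DFR, dihydroflavonol reductase of anthocyanin synthesis, had 6.49, 5.98 and 6.40 with hyperphyllin and 8.17, 8.74 and 8.45 in amp1-13, against 6.31, 5.27 and 5.02 in wild type with DMSO. The difference from wild-type DMSO was 0.76 with hyperphyllin (95% confidence interval 0.07 to 1.44, adjusted p = 0.0929) and 2.92 in amp1-13 (adjusted p = 0.00054), and DFR was 4.48-fold lower with hyperphyllin than in amp1-13 (-2.16 ± 0.30, adjusted p = 0.00377). AT2G32160 had 4.48, 3.83 and 3.84 with hyperphyllin and 5.82, 5.94 and 6.09 in amp1-13, with 4.25, 4.50 and 4.49 in wild type with DMSO (-1.90 ± 0.17, adjusted p = 0.000628). Its hyperphyllin mean, 4.05, was dim.

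Over all called probe sets the wild-type DMSO mean was below both other means in 358 of the 677 that were higher with hyperphyllin (52.9%), between them in 254 (37.5%) and above both in 65 (9.6%). For the 762 that were lower with hyperphyllin it was below both in 146 (19.2%), between them in 409 (53.7%) and above both in 207 (27.2%). These are positions of means, with no test.

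**Figure D3:**
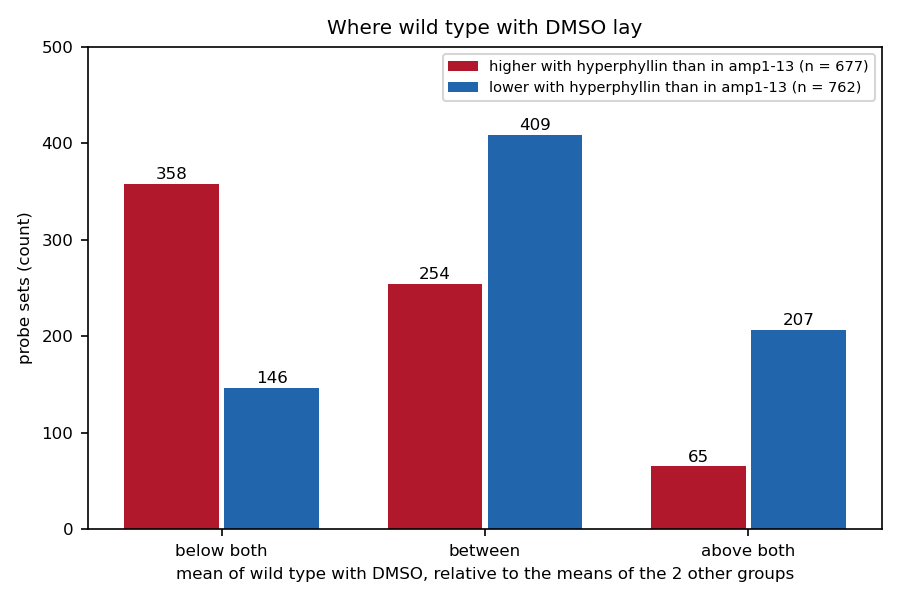
Number of called probe sets (y axis) by where the mean of wild type with DMSO lay relative to the means of hyperphyllin-treated wild type and amp1-13 (x axis), for the 677 higher with hyperphyllin (red) and the 762 lower (blue). The tallest bars are 358 below both among the higher and 409 between the means among the lower.

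Gene lists were described by counts, since their members were chosen with earlier results of these arrays known. The 49 lists with at least 5 measured genes held 711 genes, of which 27 were higher and 51 lower with hyperphyllin than in amp1-13 (11.0% called, against 5.35% of the 13355 genes). The called members numbered 38 without hyperphyllin replicate 2, 32 without amp1-13 replicate 2 and 41 without amp1-13 replicate 3. Over all 13355 genes 2.46% were called higher and 2.88% lower, and each list count below stands beside these shares.

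**Figure D4:**
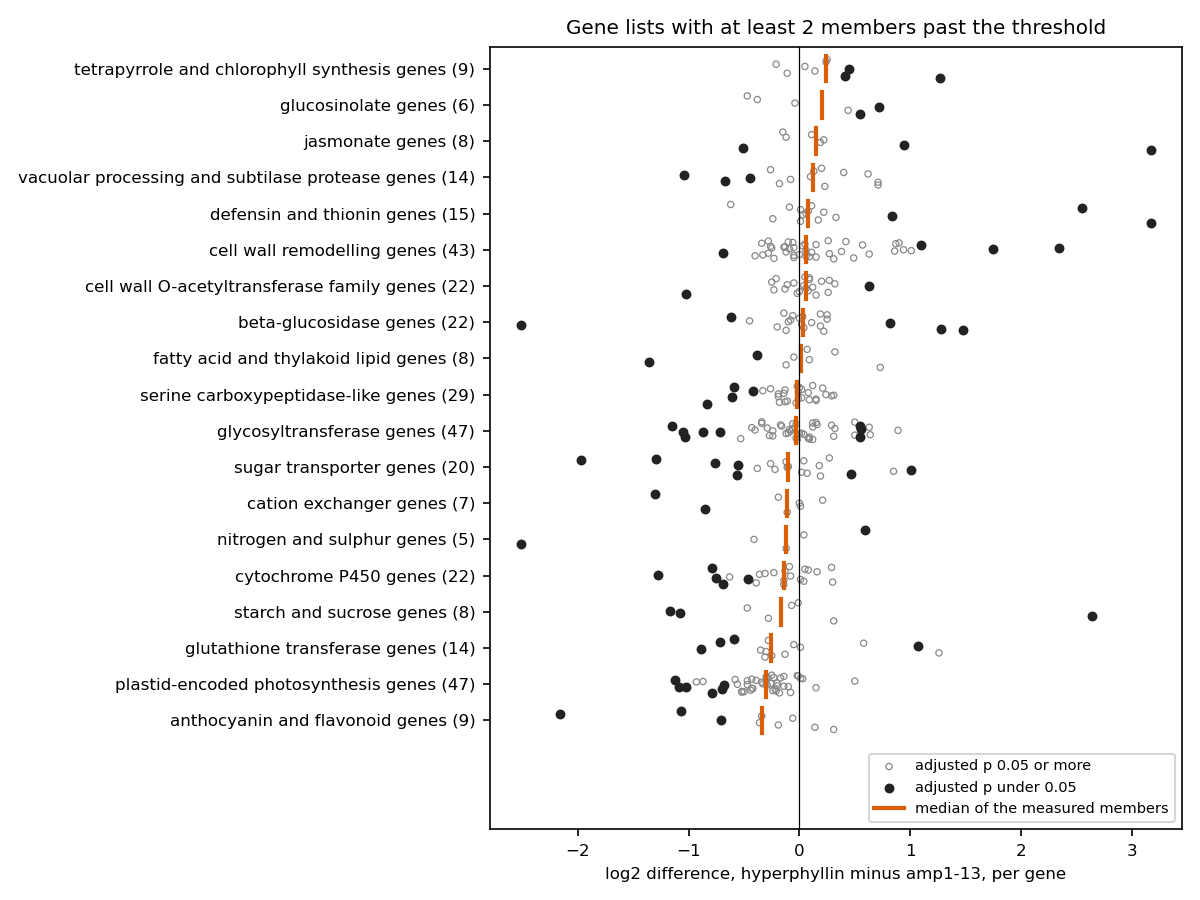
Log2 difference between hyperphyllin-treated wild type and amp1-13 for every measured gene (points) of the lists with at least 2 called members, with the number of measured genes in parentheses. Filled points passed the threshold and the orange bar is the list median, which runs from 0.24 for tetrapyrrole genes to -0.34 for anthocyanin genes.

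Pigment and chloroplast genes separated the compound from the mutation in different ways. Of 9 anthocyanin and flavonoid genes 0 were higher and 3 lower with hyperphyllin, the list median was -0.34, and the median level per array was 5.43, 5.44 and 5.55 with hyperphyllin, 6.07, 6.14 and 5.98 in amp1-13, and 5.27, 5.27 and 5.36 in wild type with DMSO. Beside DFR these were UF3GT, a glycosyltransferase that decorates anthocyanins, with 5.43, 5.44 and 5.55 with hyperphyllin and 6.47, 6.64 and 6.51 in amp1-13 (-1.07 ± 0.11, adjusted p = 0.00125), and AT4G14090 (-0.71 ± 0.10, adjusted p = 0.00333). In UF3GT the hyperphyllin arrays lay within or below the wild-type DMSO arrays, at 5.80, 5.49 and 5.88. All 3 calls held in each of the 9 fits that left out an array.

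Of 9 tetrapyrrole and chlorophyll synthesis genes 3 were higher and 0 lower with hyperphyllin, and the median was 0.24. They were the early steps HEMA2, a glutamyl-tRNA reductase (1.27 ± 0.23, adjusted p = 0.0123), HEMB1, an aminolevulinate dehydratase (0.41 ± 0.10, adjusted p = 0.0397), and HEME1, a uroporphyrinogen decarboxylase (0.45 ± 0.10, adjusted p = 0.0297). HEMA2 had 9.05, 8.98 and 8.63 with hyperphyllin, 8.19, 7.20 and 7.47 in amp1-13, and 6.88, 6.53 and 6.68 in wild type with DMSO. All 3 groups were apart in that order for HEMA2, and HEMB1 and HEME1 had the same order. These calls were close to the threshold. HEMA2 was lost without hyperphyllin replicate 2, amp1-13 replicate 2 or amp1-13 replicate 3 (adjusted p = 0.0585, 0.055 and 0.0555). HEME1 was lost without any 1 of the 6 arrays compared (0.0688 to 0.118), and HEMB1 without any of them but hyperphyllin replicate 2 (0.0708 to 0.166), and also without replicate 1 or 3 of wild type with DMSO (0.0539 and 0.0569). With the replicate number as a block both HEME1 and HEMB1 missed the threshold (0.0598 and 0.0624), and HEMB1 missed it with centring on array medians (0.0504), with another variance prior (0.0619) and with only the 6 arrays compared (0.0508).

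The plastid genome encodes core subunits of the photosystems, the NADH dehydrogenase-like complex and Rubisco. Of its 47 measured photosynthesis genes 0 were higher and 6 lower with hyperphyllin than in amp1-13, 43 differences were below 0 and 4 above, and the median was -0.30. The list's median level was 9.56, 9.36 and 9.47 with hyperphyllin, 9.44, 10.05 and 9.87 in amp1-13, and 8.87, 9.21 and 9.05 in wild type with DMSO. The first amp1-13 array thus lay among the hyperphyllin arrays, and the other 2 above them. The genes psbN, of photosystem II assembly (-1.12 ± 0.17, adjusted p = 0.00628), ndhK (-1.09 ± 0.18, adjusted p = 0.008) and ndhJ (-1.02 ± 0.14, adjusted p = 0.00323), both of the NADH dehydrogenase-like complex, had the largest called differences. For ndhK the signals were 8.44, 8.50 and 8.45 with hyperphyllin, 9.06, 9.88 and 9.70 in amp1-13, and 8.78, 8.82 and 8.89 in wild type with DMSO. Hyperphyllin arrays were thus below wild type and amp1-13 arrays above it. The gene psbA, for the D1 reaction centre protein of photosystem II, had 10.30, 10.08 and 10.46 with hyperphyllin and 10.71, 11.38 and 11.12 in amp1-13 (-0.79 ± 0.20, adjusted p = 0.0445). Its call was lost without any 1 of the 6 arrays compared except amp1-13 replicate 1 (adjusted p between 0.0559 and 0.185), without replicate 1 or 3 of wild type with DMSO (0.0644 and 0.0546), and with the replicate number as a block (0.0606).

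Other plastid and mitochondrial genes, and nuclear genes of photosynthesis, are given by the same counts, and no test compared these lists with one another. Of 22 plastid genes of gene expression 0 were called, with 14 differences below 0 and 8 above and a median of -0.05, and accD, an acetyl-CoA carboxylase subunit kept on that list, was at -0.62 (95% confidence interval -1.13 to -0.11, adjusted p = 0.165). Of 16 genes of the mitochondrial genome 15 differences were below 0 and 1 above, with a median of -0.14, and 1 gene was lower, nad2 (-0.57 ± 0.13, adjusted p = 0.0338), whose call was lost without any 1 of the 6 arrays compared (0.0573 to 0.153) and without replicate 3 of wild type with DMSO (0.0507), and, with the replicate number as a block, was at 0.0511. The nad2 means with hyperphyllin, 3.79, and in amp1-13, 4.36, were both dim. None of 8 nuclear photosystem and antenna genes was called, with differences from -0.37 to 0.32. LHCB4.2, an antenna protein, was at -0.37 (-0.67 to -0.07, adjusted p = 0.154) and PSBY, a small photosystem II protein, at -0.34 (-0.63 to -0.05, adjusted p = 0.173). Of 3 Calvin cycle genes PRK, phosphoribulokinase, was lower (-0.60 ± 0.14, adjusted p = 0.0306), a call lost without any 1 of the 6 arrays compared (0.0547 to 0.125). Against wild-type DMSO, PRK was 0.93 higher with hyperphyllin and 1.54 higher in amp1-13. The list medians against wild-type DMSO were 0.93 and 1.19 for the Calvin cycle genes, and 0.51 and 0.57 for the nuclear photosystem and antenna genes.

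Sugar and starch genes differed in both directions. Of 20 sugar transporter genes 2 were higher and 5 lower with hyperphyllin, against 2.46% and 2.88% of all genes, with a median of -0.10. SWEET10, a member of the SWEET family of sugar efflux carriers, had 5.50, 5.10 and 5.55 with hyperphyllin, 6.63, 7.72 and 7.73 in amp1-13, and 6.74, 6.29 and 6.46 in wild type with DMSO (-1.97 ± 0.28, adjusted p = 0.00382). SWEET13, a sucrose exporter, had 4.32, 4.46 and 4.29 with hyperphyllin, 5.53, 6.08 and 5.33 in amp1-13, and 5.87, 5.77 and 5.82 in wild type with DMSO (-1.29 ± 0.17, adjusted p = 0.00283). Hyperphyllin was below all arrays of the other 2 groups in both genes. The SWEET13 mean with hyperphyllin, 4.36, was dim. SFP1, a sugar-porter family gene, was lower by a smaller amount (-0.76 ± 0.12, adjusted p = 0.00619). The vacuolar carrier SWEET16 was higher, with 9.55, 9.58 and 8.64 with hyperphyllin and 8.59, 8.15 and 7.99 in amp1-13 (1.01 ± 0.24, adjusted p = 0.0405). Its call was lost without hyperphyllin replicate 1 or 2 or amp1-13 replicate 2 or 3 (0.131 to 0.161) and without replicate 1 or 3 of wild type with DMSO (0.0611 and 0.0698) and with only the 6 arrays compared (0.0758).

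Of 8 starch and sucrose genes 1 was higher, QQS, and 2 were lower. APL3, a large subunit of ADP-glucose pyrophosphorylase, the entry step of starch synthesis, had 5.38, 5.21 and 6.22 with hyperphyllin, 6.60, 6.81 and 6.92 in amp1-13, and 7.27, 7.50 and 7.34 in wild type with DMSO (-1.17 ± 0.23, adjusted p = 0.0169). The locus AT4G24450, listed as PWD, differed by -1.08 ± 0.22 (adjusted p = 0.0195). The 2 calls were lost without hyperphyllin replicate 1 or 2 or amp1-13 replicate 2 or 3, with adjusted p between 0.0588 and 0.0964.

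Beta-glucosidases, which release aglycones from stored glucosides, also split. Of 22 genes 3 were higher and 2 lower, against 2.46% and 2.88% of all genes, with a median of 0.03. BGLU45 and BGLU46, known for acting on monolignol glucosides, had differences of 1.48 ± 0.30 (adjusted p = 0.0188) and 1.28 ± 0.21 (adjusted p = 0.00766). BGLU46 had 8.72, 8.84 and 8.16 with hyperphyllin, 7.67, 7.12 and 7.09 in amp1-13, and 6.87, 6.85 and 7.17 in wild type with DMSO. BGLU25 had 9.54, 9.02 and 9.05 with hyperphyllin and 8.46, 8.29 and 8.42 in amp1-13 (0.82 ± 0.14, adjusted p = 0.00814). BGLU28, described above, lay at the other end at -2.51. The call of BGLU45 was lost without hyperphyllin replicate 2 or amp1-13 replicate 2 or 3 (0.0799, 0.0873 and 0.0728), and that of BGLU25 without amp1-13 replicate 2 (0.0505).

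Glucosinolates are sulphur-rich defence compounds. Of 6 glucosinolate genes 2 were higher and 0 lower, 3 differences were above 0 and 3 below, the lowest was -0.47 and the median was 0.20. The called genes were the transporter GTR1 (0.72 ± 0.16, adjusted p = 0.0281) and the biosynthetic glucosyltransferase UGT74B1 (0.55 ± 0.13, adjusted p = 0.0424). Of 5 nitrogen and sulphur genes 1 was higher and 1 lower, with a median of -0.12: APS4, an ATP sulfurylase of sulphate assimilation (0.59 ± 0.12, adjusted p = 0.0225), and BGLU28 at -2.51. The calls of GTR1, UGT74B1 and APS4 were each lost without hyperphyllin replicate 1 or 2 or amp1-13 replicate 2 (0.0757 to 0.168). GTR1 and APS4 were also lost without amp1-13 replicate 3 (0.0932 and 0.0565). UGT74B1 was also lost without hyperphyllin replicate 3, amp1-13 replicate 1 or replicate 3 of wild type with DMSO (0.0684, 0.119 and 0.0621), and with the replicate number as a block (0.0744).

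Genes for enzymes that conjugate or oxidise small molecules differed in both directions. Of 47 glycosyltransferase genes 3 were higher and 5 lower (median -0.03), against 2.46% and 2.88% of all genes. Of 14 glutathione transferase genes 1 was higher and 3 lower (median -0.26), and of 22 cytochrome P450 genes 0 were higher and 5 lower (median -0.14). CYP71B26 had 9.20, 8.97 and 8.75 with hyperphyllin, 10.09, 10.51 and 10.17 in amp1-13, and 9.35, 9.07 and 9.24 in wild type with DMSO, so that the mutant arrays were above all others (-1.28 ± 0.15, adjusted p = 0.00174). In UGT74D1 the mutant arrays were also the highest, with 7.72, 7.31 and 7.43 with hyperphyllin, 8.50, 8.61 and 8.49 in amp1-13, and 7.29, 7.13 and 7.22 in wild type with DMSO (-1.05 ± 0.11, adjusted p = 0.00127). UGT85A5 had another order, with hyperphyllin lowest at 6.39, 6.24 and 6.62, amp1-13 at 7.28, 7.58 and 7.48, and wild type with DMSO highest at 7.79, 7.92 and 7.59 (-1.03 ± 0.13, adjusted p = 0.00276). GSTU27 (-0.72 ± 0.12, adjusted p = 0.00864) and CYP71B28 (-0.69 ± 0.11, adjusted p = 0.00655) were also lower, and these 5 calls held in each of the 9 fits that left out an array. GSTU22 was the glutathione transferase that was higher (1.07 ± 0.23, adjusted p = 0.0252), a call lost without any 1 amp1-13 array (0.0601, 0.0749 and 0.0936 without replicates 1, 2 and 3).

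CYP78A9 belongs to the CYP78A family, whose members are known for promoting organ growth and acting beside AMP1. It had 4.83, 5.14 and 5.08 with hyperphyllin, 5.73, 6.12 and 5.56 in amp1-13, and 5.47, 5.60 and 5.28 in wild type with DMSO. Hyperphyllin arrays were below both other groups, and amp1-13 arrays overlapped wild type (-0.79 ± 0.15, adjusted p = 0.0179). The call was lost without hyperphyllin replicate 1 or amp1-13 replicate 2 (0.0631 and 0.0649).

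Vacuolar processing enzymes are cysteine proteases that mature vacuolar proteins, and 3 of them were lower with hyperphyllin. GAMMA-VPE, the form known from vegetative tissue, had 11.16, 11.37 and 11.66 with hyperphyllin, 12.26, 12.57 and 12.47 in amp1-13, and 12.18, 12.69 and 12.25 in wild type with DMSO (-1.04 ± 0.17, adjusted p = 0.00711). BETA-VPE, known from seeds, had 7.07, 7.26 and 7.23 with hyperphyllin, 7.67, 7.99 and 7.90 in amp1-13, and 8.18, 8.15 and 8.17 in wild type with DMSO (-0.67 ± 0.10, adjusted p = 0.00537). For GAMMA-VPE the mutant overlapped wild type and only hyperphyllin arrays were apart. DELTA-VPE was low in every array (-0.45 ± 0.09, adjusted p = 0.0212), and its call was lost without hyperphyllin replicate 2 or amp1-13 replicate 1 or 2 (0.0881, 0.0613 and 0.0805). These were the only called members of a list of 14 vacuolar processing and subtilase genes, whose median was 0.12.

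Of 29 serine carboxypeptidase-like genes 0 were higher and 4 lower, against 2.46% and 2.88% of all genes, with a median of -0.02. The gene scpl31 had 3.98, 3.87 and 3.93 with hyperphyllin, 4.90, 4.68 and 4.67 in amp1-13, and 4.09, 4.19 and 4.10 in wild type with DMSO (-0.83 ± 0.09, adjusted p = 0.00137). Its means with hyperphyllin, 3.93, and in wild type with DMSO, 4.13, were dim. For scpl46 the signals were 6.60, 6.55 and 6.50 with hyperphyllin, 7.07, 7.24 and 7.15 in amp1-13, and 6.36, 6.29 and 6.35 in wild type with DMSO (-0.61 ± 0.08, adjusted p = 0.00324). In both, the mutant arrays were the ones above the rest. The other called members were SCPL34 (-0.59 ± 0.11, adjusted p = 0.0143) and scpl48 (-0.42 ± 0.10, adjusted p = 0.0362). SCPL34 was lost without hyperphyllin replicate 2 or amp1-13 replicate 2 or 3 (0.0505 to 0.0769). The call of scpl48 was lost without hyperphyllin replicate 2 or 3 or any 1 amp1-13 array (0.0796 to 0.147). It was also lost with another variance prior (0.0605) and with the replicate number as a block (0.0737).

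Of 43 cell wall remodelling genes 3 were higher and 1 lower, against 2.46% and 2.88% of all genes, with a median of 0.06. Beside ATPMEPCRB, the pectin methylesterase gene PME61 had 6.69, 7.24 and 6.79 with hyperphyllin and 5.14, 5.04 and 5.30 in amp1-13, and wild type with DMSO, at 7.02, 6.92 and 6.80, overlapped hyperphyllin (1.75 ± 0.15, adjusted p = 0.000457). The mutant was thus the group that stood apart. XTH18, of the xyloglucan-modifying enzymes, was higher (1.10 ± 0.25, adjusted p = 0.0303), and ATPMEPCRD, a further pectin methylesterase-type gene, was lower (-0.69 ± 0.16, adjusted p = 0.0342). Against wild-type DMSO, XTH18 was at 1.96 with hyperphyllin and 0.86 in amp1-13, and ATPMEPCRD at -3.13 and -2.44. Each gene thus moved the same way in both groups. The calls of XTH18 and ATPMEPCRD were lost without hyperphyllin replicate 2 or amp1-13 replicate 2 or 3 (0.0824 to 0.145). XTH18 was also lost without hyperphyllin replicate 1 or replicate 3 of wild type with DMSO (0.0983 and 0.0546) and with only the 6 arrays compared (0.0594), and ATPMEPCRD without hyperphyllin replicate 3, amp1-13 replicate 1 or replicate 1 of wild type with DMSO (0.0536, 0.0688 and 0.051) and with the replicate number as a block (0.0657).

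**Figure D5:**
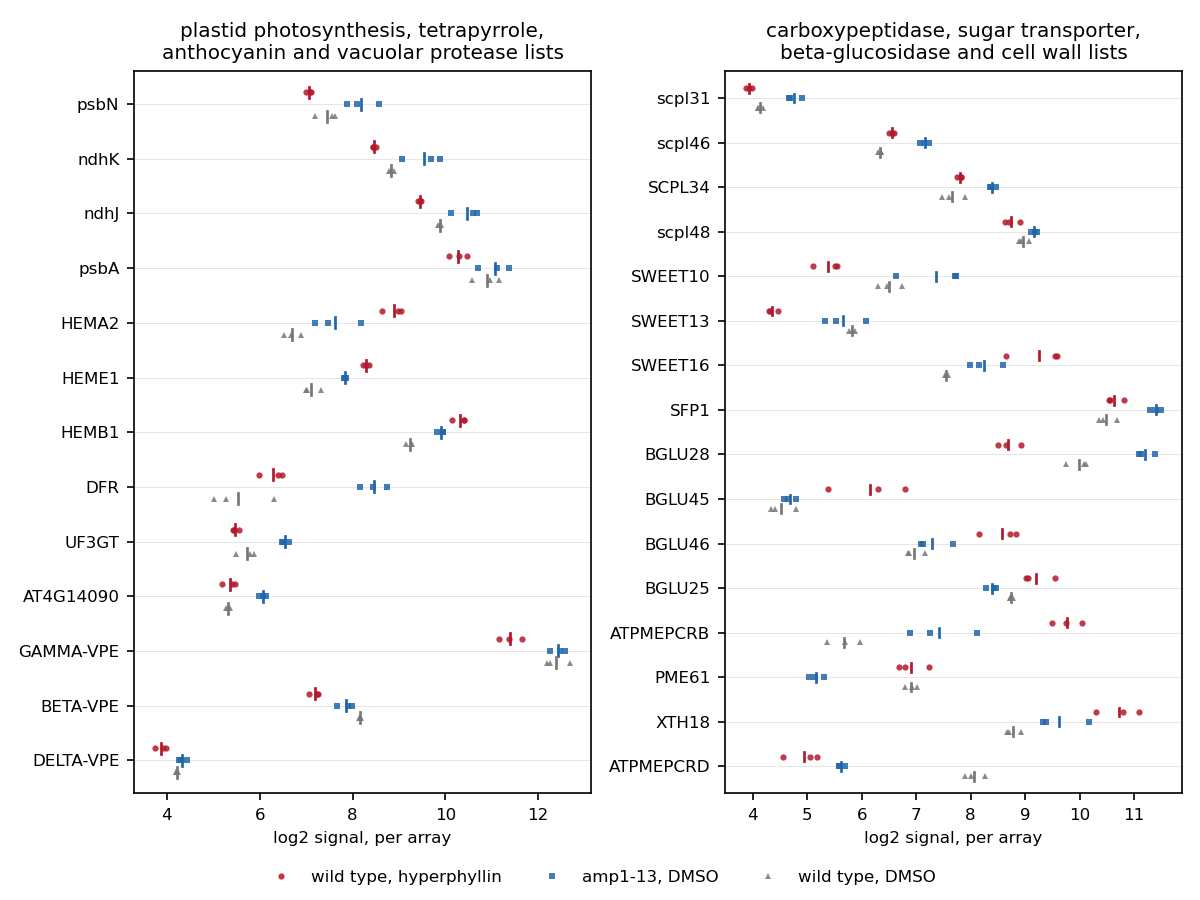
Log2 signal per array of the called genes that were named from 8 lists, with a bar at each group mean (red circles, wild type with hyperphyllin; blue squares, amp1-13; grey triangles, wild type with DMSO). DFR and scpl31 are highest in the mutant arrays, GAMMA-VPE and SWEET13 are lowest with hyperphyllin, and PME61 is lowest in the mutant arrays.

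Ion transport and lipid genes gave a few further differences. CHX20, a cation/proton exchanger known from guard cells, had 6.23, 7.10 and 6.84 with hyperphyllin, 8.31, 7.99 and 7.77 in amp1-13, and 8.10, 8.18 and 7.81 in wild type with DMSO (-1.30 ± 0.22, adjusted p = 0.00908). CHX16 of the same family was lower as well (-0.85 ± 0.12, adjusted p = 0.00343), the second of 7 measured members. AAE16, an acyl-activating enzyme family gene, had 6.84, 6.89 and 7.27 with hyperphyllin, 8.04, 8.49 and 8.56 in amp1-13, and 7.87, 8.28 and 7.88 in wild type with DMSO (-1.36 ± 0.18, adjusted p = 0.00293). In CHX20 and AAE16 the amp1-13 and wild-type arrays overlapped and the hyperphyllin arrays lay below both.

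Among the jasmonate, cytokinin, auxin and abscisic acid lists, called genes were found in the jasmonate list. Of 8 jasmonate genes 2 were higher, PDF1.4, a jasmonate-list defensin, and OPCL1, a CoA ligase of jasmonate synthesis (0.94 ± 0.20, adjusted p = 0.0242), and 1 was lower, JMT, which methylates jasmonate (-0.51 ± 0.10, adjusted p = 0.0222). OPCL1 and JMT were lost without hyperphyllin replicate 1 or 2 or amp1-13 replicate 2 or 3 (0.0681 to 0.115), and JMT also without amp1-13 replicate 1 (0.0516). The JMT means with hyperphyllin, 3.74, and in amp1-13, 4.25, were both dim. Of 8 cytokinin genes, mostly response regulators, 0 were called, and their differences ranged from -0.15 to 0.17. The list's median level was 4.00 with hyperphyllin, 4.06 in amp1-13 and 4.14 in wild type with DMSO. These levels lay in the lowest quartile of mean signal, so nearness to background limits what this list can show. RR22 was at -0.15 (95% confidence interval -0.34 to 0.05, adjusted p = 0.434) and RR23 at 0.17 (-0.19 to 0.54, adjusted p = 0.679). Their signals, between 3.20 and 4.02, lay in the lowest quartile of mean signal, where 0.51% of probe sets were called higher and 0.229% lower. Of 16 auxin genes 0 were called. IAA29, an auxin-response repressor gene, had 4.70, 6.89 and 5.08 with hyperphyllin and 4.47, 4.24 and 4.76 in amp1-13, with an interval of 0.04 to 2.10 around 1.07 (adjusted p = 0.242), and 1 hyperphyllin array stood well above the other 2. Among 8 abscisic acid genes 0 were called and the median was 0.36. LTI30, a dehydrin gene, had 11.99, 10.95 and 9.61 with hyperphyllin and 9.57, 8.64 and 8.39 in amp1-13 (1.99 ± 0.56, adjusted p = 0.075), and it passed the threshold without hyperphyllin replicate 3 (adjusted p = 0.0155) and with the replicate number as a block (0.0169).

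Several lists of stress and growth genes also held 0 called members. For 10 autophagy genes 9 differences were below 0 and the median was -0.23. ATG8E, a ubiquitin-like protein of the autophagosome, had 8.76, 8.78 and 8.43 with hyperphyllin and 9.14, 9.30 and 9.66 in amp1-13 (-0.71 ± 0.21, adjusted p = 0.0864), and it passed without replicate 2 of wild type with DMSO (0.024). ATG8B was at -0.65 ± 0.18 (adjusted p = 0.0634) and passed without amp1-13 replicate 1 (0.0237). For 6 WRKY factors the median was 0.05, and WRKY22 was at 0.86 ± 0.29 (adjusted p = 0.125), passing with the replicate number as a block (0.0359). GRX480, a glutaredoxin gene induced by salicylate, had 9.53, 10.56 and 10.02 with hyperphyllin and 9.28, 7.71 and 7.43 in amp1-13 (1.90 ± 0.51, adjusted p = 0.0625). It passed without amp1-13 replicate 1 (0.0112), the array closest to the hyperphyllin group, and without replicate 2 of wild type with DMSO (0.0389). The 10 cell cycle genes ranged from -0.25 to 0.27, the 14 endoplasmic reticulum stress genes from -0.35 to 0.38, and the 9 U-box ligase genes from -0.67 to 1.00, with 0 called in each.

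The whole-seedling label was checked against markers. Root genes were measured in all groups: the median level of 7 root markers was 7.89, 8.14 and 7.60 with hyperphyllin, 8.15, 7.66 and 7.44 in amp1-13, and 7.51, 7.56 and 7.50 in wild type with DMSO, and 0 were called. Guard cell markers had medians of 6.84, 6.58 and 6.97 with hyperphyllin and 6.74, 6.55 and 6.90 in amp1-13, against 7.44, 7.59 and 7.25 in wild type with DMSO. Of the 7, AT1G22690 was lower (-0.72 ± 0.15, adjusted p = 0.0204), a call lost without any 1 amp1-13 array (0.0559, 0.0798 and 0.0643 without replicates 1, 2 and 3). Only 3 shoot meristem and 2 trichome markers were measured, with 0 called. CLV3, the peptide that marks shoot stem cells, had 3.76, 3.72 and 3.76 with hyperphyllin, 4.07, 5.04 and 3.98 in amp1-13, and 3.72, 3.85 and 3.73 in wild type with DMSO. The amp1-13 arrays were the highest, with no overlap, but the difference did not pass the threshold (-0.62, 95% confidence interval -1.14 to -0.09, adjusted p = 0.177). The CLV3 means, 3.75 with hyperphyllin, 4.37 in amp1-13 and 3.76 in wild type with DMSO, were all dim. In whole seedlings a change in the share of a cell type and a change in RNA per cell cannot be told apart, and the part of cell composition in the differences was not tested.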

How the data were processed

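Total RNA of 3 biological replicates in each of 3 groups was measured on Affymetrix ATH1 arrays. The authors deposited log2 signals, for which the submitters' processing notes name RMA. The software and how probe sets were defined were not given in the sources used here. Signals ran from 2.77 to 14.3 and were used with no further normalization or filter, and 64 control probe sets were left out. The number of arrays limits the precision.

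The fit used limma 3.58.1 (R 4.3.3) over all 9 arrays with 1 mean per group (6 residual and 3.45 prior degrees of freedom), two-sided, and p-values were adjusted by Benjamini-Hochberg across 22746 probe sets. The smallest p of an exact permutation test with 3 arrays per group is 0.1. The fit was tested on simulated data with independent normal noise and 200 changed probe sets. At an adjusted p under 0.05, it recovered 32 of 67 changes of 1.5-fold, 59 of 67 of 2-fold and 64 of 66 of 4-fold. Among unchanged probe sets 12 were called. A gene that was not called can thus still differ by 1.5-fold.

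A probe set table named 1 gene for 13513 probe sets, several for 503 (not assigned) and none here for 8730. Of those naming 1 gene, 13436 matched RefSeq (TAIR10.1), which gave symbols and synonyms, and 77 did not. In lists a gene was represented by its probe set with the highest mean (13355 genes). Named genes were the 15 with the largest difference per direction that passed the threshold with no overlap, and from each list up to 4 such members, or, where none passed, the 2 members of smallest p. The members and lists were chosen with earlier results of these data known. The labels state no pairing. Deviations from group means correlated between same-numbered arrays from -0.1971 to 0.2261, and between differently numbered arrays from -0.2507 to 0.3574. With 3 arrays per group these values cannot decide whether the numbers pair the samples. Alternatives were 2 filters on dim probe sets, quantile normalization, median centring, another variance prior, array weights, a replicate block, the 6 arrays alone, a minimum of 2-fold, and leaving out each array.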

Additional observations from a re-analysis of the deposited data

How the results depend on the processing

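The 152 named gene differences checked included ones that were not called. None that passed the threshold, as reported or in an alternative run, changed direction between the 2. Changes of direction in differences that passed in neither were not counted. The counts of probe sets were 677 higher and 762 lower. Leaving out 1 array gave 197 to 1094 higher and 309 to 1133 lower, 32 to 105 called list members (78 with all arrays) and 22 to 30 of the 30 genes with the largest differences, of which 22 were called in all 9 such fits. Array weights gave 1735 higher, 1688 lower and 151 list members. This fit gave replicate 2 of wild type with DMSO the lowest weight, 0.2273. A minimum of 2-fold left 266 and 259. The labels state no pairing of same-numbered arrays. With the replicate number as a block the counts were 643 and 695, with 1204 probe sets called in both fits. Median centring shifted all differences by a median of -0.039, and the share of higher calls was 39.8%, against 47.0% as deposited. The cause of these changes was not tested, beyond the smaller number of arrays where one was left out. Array signals near background limit what dim genes can show: called shares were 0.51% higher and 0.229% lower in the lowest quartile of mean signal, and 3.87% and 6.26% in the highest.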

Other observations

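Among smaller gene families, IQD22, an IQ-domain protein gene of the calmodulin-binding kind, was higher with hyperphyllin, with 7.55, 7.80 and 7.53 against 6.78, 6.12 and 6.48 in amp1-13 and 6.27, 5.99 and 6.14 in wild type with DMSO (1.17 ± 0.16, limma adjusted p = 0.00365), the only called member of 15. AGL24, a MADS-box promoter of flowering, was the only called member of 40, with 4.95, 4.72 and 4.81 with hyperphyllin, 5.44, 5.64 and 6.15 in amp1-13, and 5.14, 4.95 and 5.14 in wild type with DMSO (-0.92 ± 0.17, adjusted p = 0.0123). The mutant arrays were above all others for AGL24, and its call was lost without hyperphyllin replicate 2 (0.0604). Over all 13355 genes 2.46% were called higher and 2.88% lower, so 1 lower member of 40 is near the share over all genes. A pair of genes from a family of cell wall O-acetyltransferase genes differed in opposite directions: TBL38 by -1.02 ± 0.18 (adjusted p = 0.0103) and TBL39 by 0.63 ± 0.14 (adjusted p = 0.0285). TBL38 was lost without amp1-13 replicate 2 (0.0613), and TBL39 without hyperphyllin replicate 2 or 3 or amp1-13 replicate 2 or 3 (0.0695 to 0.108) and with the replicate number as a block (0.054).

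Some called genes lie next to each other among the measured genes in TAIR10.1, and the following pairs were chosen after their values were seen, with no test of how often neighbours were called together. SWEET10 and SWEET13 differed by -1.97 and -1.29, BGLU45 and BGLU46 by 1.48 and 1.28, CYP71B22 and CYP71B23 by -0.46 and -0.75, and AT4G15690 and AT4G15700 by 1.52 and 1.51. The CYP71B23 call (limma adjusted p = 0.0445) was lost without any 1 of the 6 arrays compared except amp1-13 replicate 1 (0.0657 to 0.169). It was also lost without replicate 1 or 3 of wild type with DMSO (0.0658 and 0.0741) and with only the 6 arrays compared (0.0776). Whether probe sets of similar copies share signal was not tested. By chromosome the share called lower was 2.46% to 3.17% on the nuclear chromosomes and 8.7% on the plastid genome, where 6 of 69 genes were lower and 0 higher. Median levels of both plastid lists, 9.45 and 10.29 with hyperphyllin, lay in the highest quartile of mean signal (8.10 to 14.19). In that quartile 6.26% of all probe sets were called lower, and plastid genes were not compared with genes of like signal.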
